A study of Mus musculus with 25 samples.

Results

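Regulatory T cells (Treg) lacking both p65 and c-Rel were set against conventional T cells (Tconv) of the wild type after the same stimulation, 2 libraries a group, or 4 of the 25 libraries of the series. They were chosen by their titles: DKO Treg stim replicates 1 and 2 against WT Tconv stim replicates 1 and 2. DKO stands for loss of both p65, the product of Rela, and c-Rel, the product of Rel. The cells came from spleen and lymph node of C57BL/6 mice, and the stimulated cells had 3 h with CD3 and CD28 antibodies at 2 µg/ml in the presence of IL-2. The question was how far Treg without these factors stand from normal activated Tconv, which share their stimulus but not their lineage or genotype. Lineage and genotype change together between the 2 groups, so stimulated WT Treg (2 libraries), unstimulated DKO Treg (2 libraries), unstimulated WT Tconv (2 libraries) and unstimulated WT Treg (4 libraries) are given where they help to place a value. The sources used here do not give age, the Cre line behind the deletion or whether replicates were separate animals. A p-value therefore measures a spread between libraries only. That spread was pooled over 21 libraries in 10 groups of the series, Treg lacking p65 or c-Rel alone among them.

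Treg restrain immune responses, and the transcription factor Foxp3 holds them in that state; Tconv are the cells that respond to antigen with growth and cytokines. p65 and c-Rel are subunits of NF-kB, which moves to the nucleus after signals through the T cell receptor and CD28 and binds kappa-B sites near its target genes. c-Rel is known for its part in the induction of Foxp3 and of Il2.

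Expression is given as FPKM, fragments per kilobase of transcript, scaled to the mapped fragments of the library, as deposited. Differences are in log2(FPKM + 1), which understates the change of genes with low FPKM, and ± is the standard error of the difference. A gene was called at an adjusted p under 0.05 in a fit with no replicate block. The 4 libraries held an estimated 20.9 and 50.2 M fragments for stimulated DKO Treg, against 16 and 52.8 M for stimulated WT Tconv. Replicates 1 and replicates 2 carry consecutive library numbers, 10 to 16 and 21 to 30, and each pair can be read on its own; the labels do not call these batches.

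3 features of the libraries bear on the values. First, stimulated WT Treg replicate 1 differed at least 2-fold from unstimulated WT Treg replicate 3 at 38 of 11535 genes (0.329%), and stimulated WT Treg replicate 2 from unstimulated WT Treg replicate 4 at 39 genes (0.338%). These were closer than the replicates of any group here, of which the closest pair, the unstimulated WT Tconv, differed at 174 genes (1.51%). Stimulated DKO Treg, by contrast, differed from unstimulated DKO Treg at 805 to 1738 genes (6.98% to 15.1%), and stimulated from unstimulated WT Tconv at 1028 to 1570 genes (8.91% to 13.6%). Limma called 0 of 11535 genes (0%) between stimulated and unstimulated WT Treg, with 311 at an unadjusted p under 0.05. Unstimulated WT Treg replicate 1 entered that test but stood apart: it differed at least 2-fold from its replicates 3 and 4 at 2869 and 2660 genes (24.9% and 23.1%), and stimulated WT Treg differed from it at 2973 and 2946 genes (25.8% and 25.5%). Without it and 2 knockout libraries of doubtful label or purity (p65KO Treg replicate 1 and c-RelKO Treg replicate 2), left out after the values were seen, limma called 0 genes here too, with 195 at an unadjusted p under 0.05. Values of stimulated WT Treg therefore stand beside the others as those of the libraries so labelled. Second, Xist, the RNA of the inactive X chromosome, was at 27.9 and 35.9 FPKM in stimulated DKO Treg, against 65.4 and 0.0143 FPKM in stimulated WT Tconv, and the Y-linked gene Ddx3y at 0 and 0 FPKM, against 0 and 60.7 FPKM. Replicate 2 thus sets female DKO cells against male Tconv, while both libraries of replicate 1 were female. Last, haemoglobin RNA (Hba-a1) was at 8.67 and 298 FPKM in stimulated DKO Treg, against 0.000583 and 38.8 FPKM in stimulated WT Tconv, higher in replicate 2 of each group. The part of sex and of blood in any difference was not tested.

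The targeted gene Rel (chr11:23641729-23670970, mm9) had 2.23 and 2.14 FPKM in stimulated DKO Treg, against 149 and 126 FPKM in stimulated WT Tconv (log2 difference -5.44 ± 0.89, adjusted p = 0.000369). The groups were far apart, and the difference was -5.54 in the first pair and -5.34 in the second. Rela (chr19:5637490-5648130) had 107 and 99 FPKM in stimulated DKO Treg, against 125 and 128 FPKM in stimulated WT Tconv (log2 difference -0.30 ± 0.26, adjusted p = 0.429). The labels do not say which part of Rela was deleted, and a value over the whole gene need not fall with it, so Rela neither checks nor contradicts the label. The other NF-kB subunits were not called either: Relb had 72.7 and 82.9 FPKM in stimulated DKO Treg, against 119 and 132 FPKM in stimulated WT Tconv (log2 difference -0.69 ± 0.41, adjusted p = 0.227), and Nfkb2, the precursor of p52, had 148 and 184 FPKM in stimulated DKO Treg, against 192 and 225 FPKM in stimulated WT Tconv (log2 difference -0.33 ± 0.53, adjusted p = 0.688).

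Foxp3 (chrX:7156802-7172369) had 6.34 and 8.31 FPKM in stimulated DKO Treg, against 0.709 and 0.596 FPKM in stimulated WT Tconv (log2 difference 2.32 ± 0.50, adjusted p = 0.0028). Stimulated WT Treg had 336 and 295 FPKM. The DKO libraries thus lay above both Tconv libraries and far below both WT Treg libraries, and the test of DKO against WT Treg gave a log2 difference -5.25 ± 0.50, adjusted p = 7.79e-06. In bulk libraries, fewer cells with Foxp3 and less Foxp3 RNA per cell cannot be told apart.

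Across the genome, 3675 of 11535 genes (31.9%) differed between stimulated DKO Treg and stimulated WT Tconv: 1725 were higher (15%) and 1950 lower (16.9%) in DKO Treg. The split leaned the other way with size factors, at 1977 higher and 1790 lower, and with no filter on low values, at 1962 and 1927. The median size of the difference over all genes was 0.49. The shares of 15% higher and 16.9% lower are the background for the list counts below. Among the called genes, 1141 were at least 2-fold higher and 1019 at least 2-fold lower, but the large differences lay mostly on the upper side, with 219 genes at least 8-fold higher and 41 at least 8-fold lower. In the first pair 1349 genes were at least 2-fold higher and 1188 at least 2-fold lower, and in the second pair 1384 and 1362. Both pairs agreed in sign at all 3675 called genes, 1117 genes were at least 2-fold higher and 933 at least 2-fold lower in both pairs, and 2 were at least 2-fold in opposite directions. Without stimulated DKO Treg replicate 2 the count was 2290, without stimulated WT Tconv replicate 1 it was 2307, and without stimulated WT Tconv replicate 2 it was 2339.

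**Figure D1:**
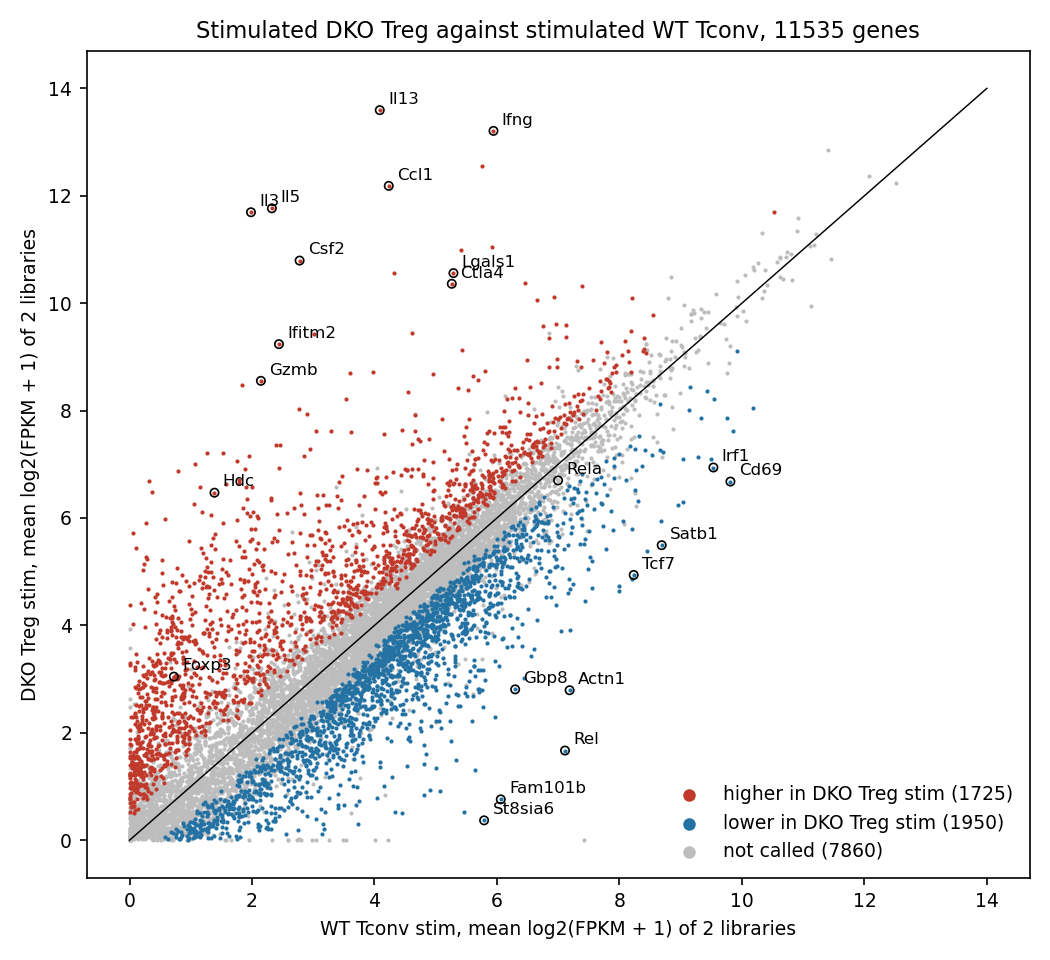
Each point is 1 of 11535 genes; the x axis is the mean log2(FPKM + 1) of the 2 stimulated WT Tconv libraries, the y axis that of the 2 stimulated DKO Treg libraries, and the line marks equality. The cytokine genes Il3, Il13 and Il5 lie farthest above the line, followed by Csf2, Ccl1 and Ifng among the labelled genes, and Rel, St8sia6 and Fam101b far below it.

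Between single libraries, stimulated DKO Treg differed about as widely from stimulated WT Tconv as from the libraries labelled stimulated WT Treg. The DKO libraries differed at least 2-fold from stimulated WT Tconv at 22% to 25.9% of genes over the 4 library pairs, and from stimulated WT Treg at 21.5% to 28.4%. The stimulated WT Treg libraries were nearly the same as unstimulated WT Treg replicates 3 and 4. Stimulation and lineage therefore cannot be told apart in that second range. Without stimulation, DKO Treg differed from WT Treg at 21.6% to 25.3% of genes and from WT Tconv at 25.3% to 27.8%. Stimulated WT Treg and stimulated WT Tconv differed from each other at 10.1% to 12.3% of genes. The 2 stimulated DKO Treg libraries differed at 3.36% of genes and the 2 stimulated WT Tconv libraries at 1.68%.

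NF-kB switches on its own inhibitors and a set of survival, adhesion and signalling genes. Of 25 such genes tested, 3 were higher and 5 lower in stimulated DKO Treg, and 17 were not called, with a median difference of -0.20 beside -0.05 over all genes; the shares are near the background. The 3 higher were Tnip3, Bcl2l1 and Bcl3. Tnip3, which encodes a partner of the inhibitor A20, had 15.4 and 21.3 FPKM in stimulated DKO Treg, against 0.409 and 0.269 FPKM in stimulated WT Tconv (log2 difference 3.84 ± 0.27, adjusted p = 6.29e-07). Bcl2l1, which encodes the survival protein Bcl-xL, had 179 and 172 FPKM in stimulated DKO Treg, against 22.5 and 28.3 FPKM in stimulated WT Tconv (log2 difference 2.75 ± 0.68, adjusted p = 0.00675). Both were several-fold higher in each DKO library than in either Tconv library. Bcl3, a nuclear member of the IkB family, had 85.9 and 84.7 FPKM in stimulated DKO Treg, against 33.7 and 39.4 FPKM in stimulated WT Tconv (log2 difference 1.20 ± 0.34, adjusted p = 0.0146). On leaving out 1 library, calls were lost for Bcl3 without stimulated DKO Treg replicates 1 or 2 or WT Tconv replicate 1 (adjusted p = 0.0633 to 0.0931).

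The transcription factor Irf1 was the most strongly lowered of these genes. It had 147 and 101 FPKM in stimulated DKO Treg, against 791 and 693 FPKM in stimulated WT Tconv (log2 difference -2.59 ± 0.22, adjusted p = 1.81e-06), with every DKO library below every Tconv library. The adhesion receptor gene Icam1 had 43.3 and 55.4 FPKM in stimulated DKO Treg, against 117 and 109 FPKM in stimulated WT Tconv (log2 difference -1.18 ± 0.36, adjusted p = 0.021). Birc3 and Birc2 encode the ubiquitin ligases cIAP2 and cIAP1. Birc3 had 79.9 and 56.8 FPKM in stimulated DKO Treg, against 151 and 126 FPKM in stimulated WT Tconv (log2 difference -1.02 ± 0.31, adjusted p = 0.0205), and Birc2 had 22.5 and 18.3 FPKM in stimulated DKO Treg, against 47.4 and 38.7 FPKM in stimulated WT Tconv (log2 difference -1.04 ± 0.22, adjusted p = 0.00292). Tnip1, the A20-binding inhibitor, had 40.5 and 35.5 FPKM in stimulated DKO Treg, against 54.8 and 71.1 FPKM in stimulated WT Tconv (log2 difference -0.70 ± 0.25, adjusted p = 0.0465). Tnfaip3, which encodes A20 itself, had 146 and 77.4 FPKM in stimulated DKO Treg, against 331 and 253 FPKM in stimulated WT Tconv and was not called (adjusted p = 0.436); stimulated WT Treg had 982 and 644 FPKM. Calls that did not hold with 1 library left out were those of Icam1 without stimulated DKO Treg replicate 1 or WT Tconv replicates 1 or 2 (adjusted p = 0.0744 to 0.125), Birc3 without stimulated DKO Treg replicate 2 or WT Tconv replicates 1 or 2 (adjusted p = 0.0514 to 0.168) and Tnip1 without any 1 of the 4 libraries (adjusted p = 0.0609 to 0.276).

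The kappa-B motif, read by p65 and c-Rel, was searched as GGG, any 5 bases and CC on both strands in the 250 bases before the start. It was found in 3 of the 3 higher genes and in 4 of the 5 lower ones, with Birc2 the exception. Shown are the 4 genes of the list that hold a match and had the smallest p. Irf1 had 2 promoters among those searched and Bcl2l1 had 3, and for each gene the 1 with a match is shown. The sequences are from RefSeq (GRCm38.p6), 5′ to 3′ on the strand of the gene, and capitals mark a match on either strand. They are Tnip3 (chr6:65590148-65590397, plus strand), Irf1 (chr11:53769764-53770013, plus strand), Bcl2l1 (chr2:152830718-152830967, minus strand) and Bcl3 (chr7:19822756-19823005, minus strand).
Tnip3: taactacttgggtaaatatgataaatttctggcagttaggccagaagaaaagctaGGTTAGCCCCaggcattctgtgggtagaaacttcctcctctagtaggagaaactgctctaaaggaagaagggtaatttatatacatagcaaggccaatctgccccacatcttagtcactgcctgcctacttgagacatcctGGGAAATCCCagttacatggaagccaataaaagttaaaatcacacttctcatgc
Irf1: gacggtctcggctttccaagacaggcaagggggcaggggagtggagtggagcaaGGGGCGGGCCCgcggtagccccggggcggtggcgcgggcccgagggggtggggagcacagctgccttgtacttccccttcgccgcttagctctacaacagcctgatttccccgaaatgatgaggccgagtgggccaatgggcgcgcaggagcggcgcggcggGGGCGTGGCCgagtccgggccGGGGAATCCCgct
Bcl2l1: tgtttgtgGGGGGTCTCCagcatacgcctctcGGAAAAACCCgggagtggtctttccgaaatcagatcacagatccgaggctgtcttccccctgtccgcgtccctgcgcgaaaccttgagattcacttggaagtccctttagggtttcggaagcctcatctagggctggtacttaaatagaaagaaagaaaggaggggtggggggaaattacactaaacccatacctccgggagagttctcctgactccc
Bcl3: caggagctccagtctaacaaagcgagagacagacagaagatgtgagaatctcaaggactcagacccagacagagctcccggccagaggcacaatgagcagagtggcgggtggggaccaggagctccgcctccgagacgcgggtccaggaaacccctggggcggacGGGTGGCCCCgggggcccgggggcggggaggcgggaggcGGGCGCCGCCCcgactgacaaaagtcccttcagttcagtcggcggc
In Tnip3, GGGAAATCCC begins 54 bases before the start. In Irf1, GGGGAATCCC begins 13 bases before the start and GGGCGTGGCC begins 34 bases before it, and 2 further matches overlap at 196 and 195 bases. Bcl2l1 has its matches at 242 and 218 bases and Bcl3 at 85, 46 and 45 bases, of which the last 2 overlap. The motif is loose: 15046 of the 32851 promoters in the table (45.8%) hold it. Counted by gene, with a match in any promoter of the gene, it was in 14 of the 20 listed genes that the table contains (70.0%) and in 13148 of all 27025 gene symbols (48.7%). Relb, Nfkbiz, Ccr7, Cd40 and Cd83 were not in the table. A match is a description of these letters and not a bound site.

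Most genes that mark the Treg lineage were higher in stimulated DKO Treg than in Tconv, although Foxp3 was far below its WT Treg level. Of 35 Treg signature genes, 22 were higher than in stimulated WT Tconv, 0 were lower, and the median difference was 2.74. The largest were Il10, Gzmb and Ctla4. The inhibitory receptor gene Ctla4 (chr1:60965869-60972674) had 1045 and 1653 FPKM in stimulated DKO Treg, against 53.9 and 25.8 FPKM in stimulated WT Tconv (log2 difference 5.10 ± 0.72, adjusted p = 0.000113). Il2ra, the high-affinity chain of the IL-2 receptor, had 1129.7 and 1011 FPKM in stimulated DKO Treg, against 108 and 91.5 FPKM in stimulated WT Tconv (log2 difference 3.41 ± 0.50, adjusted p = 0.000153). Entpd1, which encodes the ectonucleotidase CD39, had 19.7 and 20.5 FPKM in stimulated DKO Treg, against 1.29 and 0.688 FPKM in stimulated WT Tconv (log2 difference 3.43 ± 0.25, adjusted p = 6.64e-07). In all 3 genes both DKO libraries also lay above both stimulated WT Treg libraries, which had 990.1 and 729 FPKM for Ctla4, 430.2 and 623 FPKM for Il2ra and 10.7 and 9.79 FPKM for Entpd1. Penk, the enkephalin precursor gene, had 309 and 285 FPKM in stimulated DKO Treg, against 10.3 and 10.9 FPKM in stimulated WT Tconv (log2 difference 4.69 ± 0.42, adjusted p = 3.32e-06), and Socs2 had 75.9 and 54.9 FPKM in stimulated DKO Treg, against 4.34 and 1.87 FPKM in stimulated WT Tconv (log2 difference 4.07 ± 0.40, adjusted p = 6.13e-06).

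Ikzf2, which encodes the Treg transcription factor Helios, lay between the lineages. It had 44.5 and 56.6 FPKM in stimulated DKO Treg, against 7.37 and 6.03 FPKM in stimulated WT Tconv (log2 difference 2.74 ± 0.20, adjusted p = 6.29e-07), while stimulated WT Treg had 126 and 149.6 FPKM. Lrrc32 encodes GARP, the surface anchor of latent TGF-beta. It had 13.1 and 15.7 FPKM in stimulated DKO Treg, against 3.6 and 3.62 FPKM in stimulated WT Tconv and was not called (adjusted p = 0.133), while stimulated WT Treg had 569.9 and 661 FPKM. Itgb8, an integrin chain that activates TGF-beta, had 8.97 and 5.53 FPKM in stimulated DKO Treg, against 1.64 and 1.38 FPKM in stimulated WT Tconv (adjusted p = 0.0786), and 55.7 and 54.8 FPKM in stimulated WT Treg. Ikzf4, which encodes the Foxp3 partner Eos, had 16.8 and 9.22 FPKM in stimulated DKO Treg, against 7.45 and 9.89 FPKM in stimulated WT Tconv (adjusted p = 0.454), and stimulated WT Treg had 91 and 104 FPKM.

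The genes of the Tconv side were lower than in Tconv. Of 15 Tconv signature genes, 12 were lower and 1 higher (median -2.79). Tcf7 and Lef1 encode related transcription factors of naive T cells. Tcf7 had 42.9 and 20.4 FPKM in stimulated DKO Treg, against 256 and 351 FPKM in stimulated WT Tconv (log2 difference -3.29 ± 0.56, adjusted p = 0.000517), and Lef1 had 10.8 and 11.8 FPKM in stimulated DKO Treg, against 68.8 and 103 FPKM in stimulated WT Tconv (log2 difference -2.79 ± 0.23, adjusted p = 1.44e-06). Satb1, a chromatin organiser that is low in Treg, had 45.2 and 42.9 FPKM in stimulated DKO Treg, against 439.6 and 386 FPKM in stimulated WT Tconv (log2 difference -3.20 ± 0.50, adjusted p = 0.000265). For all 3 genes the DKO libraries lay below the 2 stimulated WT Treg libraries as well. Actn1, which encodes an alpha-actinin, had 4.49 and 7.76 FPKM in stimulated DKO Treg, against 127 and 165 FPKM in stimulated WT Tconv (log2 difference -4.39 ± 0.42, adjusted p = 4.98e-06), and Fam101b had 0.856 and 0.547 FPKM in stimulated DKO Treg, against 53.3 and 81.2 FPKM in stimulated WT Tconv (log2 difference -5.30 ± 0.67, adjusted p = 4.56e-05). The exception was Themis, a regulator of T cell receptor signalling, with 85.9 and 115 FPKM in stimulated DKO Treg, against 17.8 and 12.8 FPKM in stimulated WT Tconv (log2 difference 2.64 ± 0.49, adjusted p = 0.000994) and 6.93 and 5.73 FPKM in stimulated WT Treg.

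**Figure D2:**
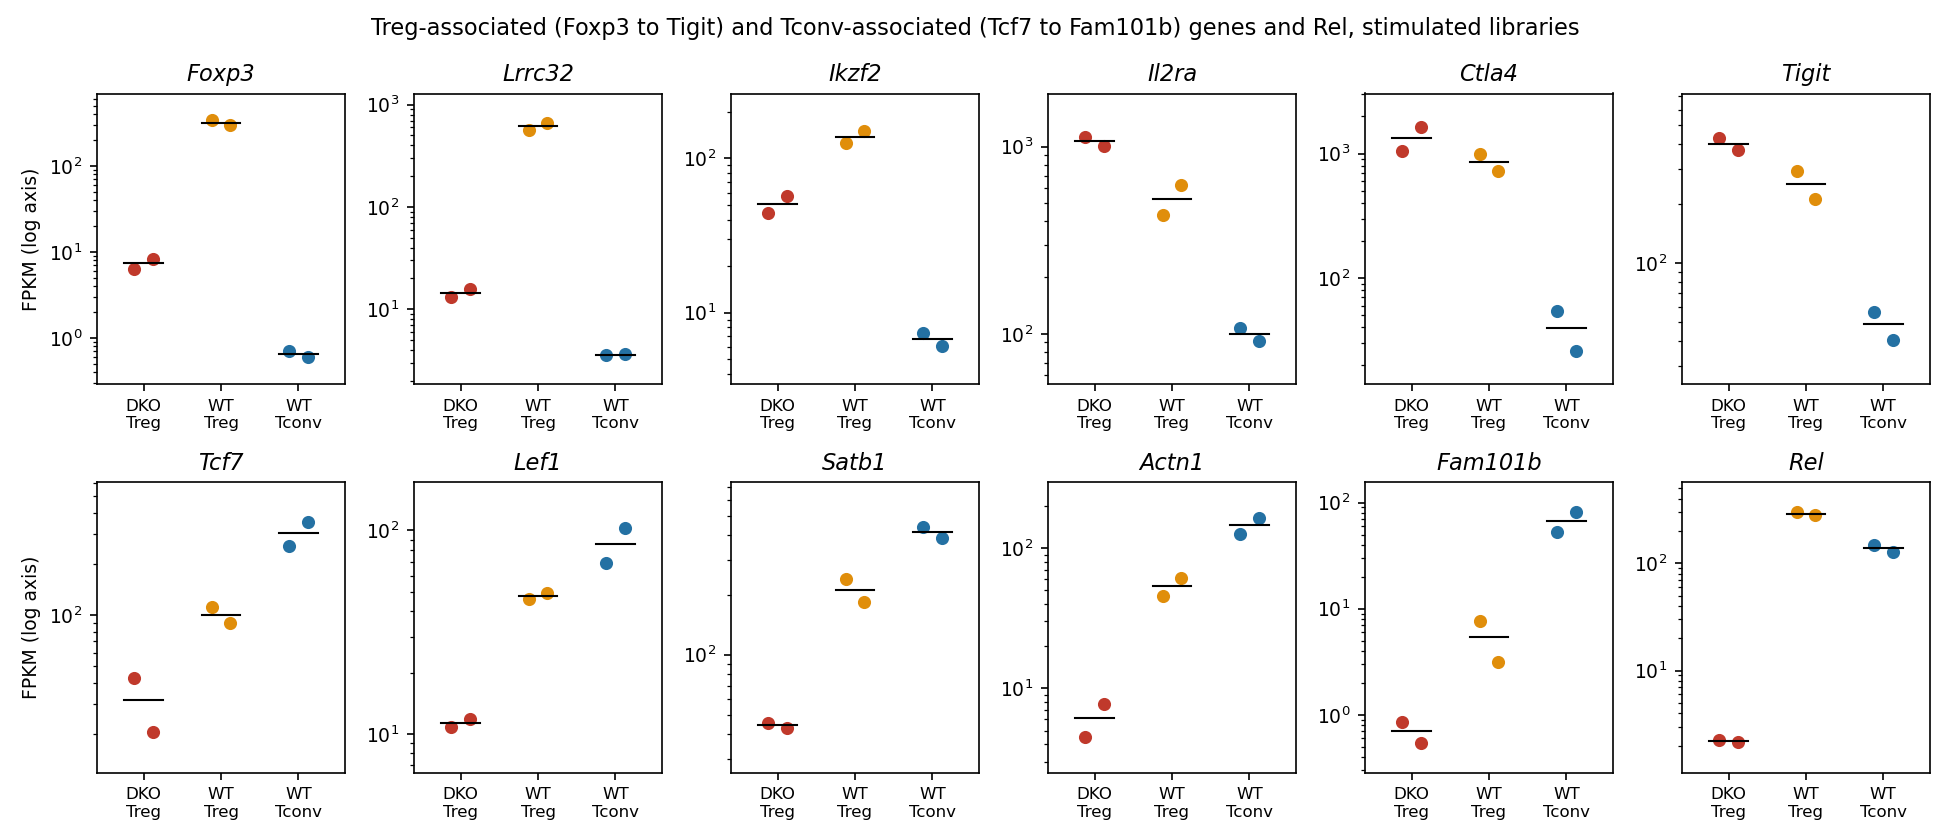
FPKM (log axis) of 12 genes in each stimulated DKO Treg, WT Treg and WT Tconv library; points are libraries and bars the mean of 2. Il2ra, Ctla4 and Tigit are high in both Treg genotypes, Foxp3 and Lrrc32 are high in WT Treg libraries only among these 3 groups, and Tcf7, Lef1, Satb1, Actn1 and Fam101b are lowest in DKO Treg.

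The same was read over larger sets, chosen in unstimulated WT Treg and WT Tconv, which the stimulated comparison does not use. There 1449 of 11535 genes (12.6%) were called, 811 higher in Treg (7.03%) and 638 lower (5.53%), of which 551 were at least 2-fold higher in Treg and 235 at least 2-fold higher in Tconv. Of the 551 Treg-high genes, 277 (50.3%) were higher and 17 (3.09%) lower in stimulated DKO Treg than in stimulated WT Tconv. The median was 1.02. The set is not of lineage genes alone, since it also holds cell cycle genes given below, such as Mki67, Top2a and Rrm2. Their part in the 277 was not counted. Without the 3 doubtful libraries the unstimulated comparison called 3045 genes, 1324 higher and 1721 lower, which gives 689 Treg-high genes, 479 of them among the 551. Of the 689, 344 were higher and 60 lower in stimulated DKO Treg, with a median of 0.77. The next values of stimulated WT Treg are a description only, since its libraries were nearly the same as unstimulated WT Treg replicates 3 and 4, with which the sets were chosen. In stimulated WT Treg against the same Tconv libraries, 251 were higher and 10 lower, with a median of 1.22; that comparison called 767 genes in all (6.65%), 419 higher (3.63%) and 348 lower (3.02%). The 767 became 1818 without the 3 doubtful libraries, 273 without stimulated WT Treg replicate 1, 307 without stimulated WT Treg replicate 2, 283 without stimulated WT Tconv replicate 1 and 288 without stimulated WT Tconv replicate 2. Of the 551, 228 were above both stimulated WT Treg libraries in both DKO libraries, and 63 were below both stimulated WT Tconv libraries. The same counts were not made over all genes, so these stand as a description without a background.

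Of the 235 Tconv-high genes, 172 (73.2%) were lower and 4 (1.7%) higher in stimulated DKO Treg (median -1.40). In both DKO libraries, 210 of them lay below both stimulated WT Tconv libraries, again with no such count over all genes. Without the 3 doubtful libraries the set held 431 genes, 228 of them among the 235, of which 314 were lower and 11 higher (median -1.13). In stimulated WT Treg, 66 of the 235 were lower and 0 higher (median -0.80), again a description of libraries nearly the same as those behind the choice. These comparisons share the Tconv libraries, so the counts stand side by side. Direct comparison of stimulated DKO Treg with stimulated WT Treg called 3776 genes (32.7%), 1909 higher (16.5%) and 1867 lower (16.2%); without stimulated DKO Treg replicate 2 the count was 2127, and without stimulated WT Treg replicate 1 it was 1904. In it, 154 of the 551 Treg-high genes were higher and 129 lower, and 19 of the 235 Tconv-high genes were higher and 81 lower, with the same limit. A set of stimulation genes from WT Treg could not be made, since none was called there.

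The type 2 cytokine genes showed some of the largest differences in the comparison. Of 12 type 2 cytokines and regulators, 9 were higher and 0 lower in stimulated DKO Treg, with a median of 5.13. Il13 (chr11:53444825-53448204) had 11693 and 13077 FPKM in stimulated DKO Treg, against 25.9 and 9.74 FPKM in stimulated WT Tconv (log2 difference 9.51 ± 1.03, adjusted p = 1.41e-05). It was the gene with the highest FPKM of all in stimulated DKO Treg replicate 1. Il5, the growth factor of eosinophils, had 4799 and 2527 FPKM in stimulated DKO Treg, against 8.51 and 1.64 FPKM in stimulated WT Tconv (log2 difference 9.44 ± 0.90, adjusted p = 5.41e-06). Il4 had 6051 and 5971 FPKM in stimulated DKO Treg, against 86.9 and 32.1 FPKM in stimulated WT Tconv (log2 difference 6.80 ± 1.07, adjusted p = 0.00028), and Il9 had 183 and 73.5 FPKM in stimulated DKO Treg, against 1.36 and 0.265 FPKM in stimulated WT Tconv (log2 difference 6.08 ± 0.58, adjusted p = 5.02e-06). In each of the 4 genes both DKO libraries lay far above both Tconv libraries.

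Regulators and receptors of this programme were among the 9. Gata3, its master transcription factor, had 165 and 86.1 FPKM in stimulated DKO Treg, against 25.9 and 17.9 FPKM in stimulated WT Tconv (log2 difference 2.41 ± 0.44, adjusted p = 0.000857). Il1rl1, the IL-33 receptor, had 283 and 76 FPKM in stimulated DKO Treg, against 3.2 and 0.98 FPKM in stimulated WT Tconv (log2 difference 5.68 ± 0.85, adjusted p = 0.000194), and the nuclear receptor gene Pparg had 54.4 and 26 FPKM in stimulated DKO Treg, against 0.332 and 0.0922 FPKM in stimulated WT Tconv (log2 difference 5.0 ± 0.36, adjusted p = 6.5e-07). Stimulated WT Treg had 87.2 and 110.4 FPKM for Gata3, 84.9 and 58.3 FPKM for Il1rl1 and 6.49 and 1.85 FPKM for Il13. Areg, which encodes the growth factor amphiregulin, had 340.2 and 197 FPKM in stimulated DKO Treg, against 6.91 and 4.88 FPKM in stimulated WT Tconv (log2 difference 5.25 ± 1.14, adjusted p = 0.003), and the itch cytokine gene Il31 had 17.8 and 33.9 FPKM in stimulated DKO Treg, against 0.106 and 0.36 FPKM in stimulated WT Tconv (log2 difference 4.39 ± 0.29, adjusted p = 3.51e-07).

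Mast cells, basophils and eosinophils also make some of these products, and their markers were read beside them. Of 11 such markers found, 5 were tested, 1 was higher and 0 were lower; the sum over the markers was 10.3 and 49.3 FPKM in stimulated DKO Treg, against 2.13 and 2.82 FPKM in stimulated WT Tconv. The one called was Kit, with 6.96 and 7.77 FPKM in stimulated DKO Treg, against 2.13 and 2.33 FPKM in stimulated WT Tconv (log2 difference 1.37 ± 0.37, adjusted p = 0.0122). Prg2, an eosinophil granule gene, stood apart with 0.0776 and 30.5 FPKM in stimulated DKO Treg, against 0 and 0.115 FPKM in stimulated WT Tconv, and the basophil protease gene Mcpt8 had 1.71 and 5.08 FPKM in stimulated DKO Treg, against 0 and 0.172 FPKM in stimulated WT Tconv. The defining genes of the IgE receptor were near 0: Fcer1a had 0.0597 and 0.0238 FPKM in stimulated DKO Treg, against 0 and 0 FPKM in stimulated WT Tconv, and Ms4a2 had 0.122 and 0.0485 FPKM in stimulated DKO Treg, against 0 and 0 FPKM in stimulated WT Tconv. The part of such cells in the cytokine values was not tested. The call was lost for Kit without stimulated DKO Treg replicate 2 or WT Tconv replicates 1 or 2 (adjusted p = 0.0528 to 0.0729).

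Cytokine genes of other T cell programmes were high in the same libraries. Il3 (chr11:54078587-54080781), a growth factor of basophils and mast cells, had the largest difference of all genes tested, with 2097 and 5224 FPKM in stimulated DKO Treg, against 5.05 and 1.58 FPKM in stimulated WT Tconv (log2 difference 9.71 ± 0.69, adjusted p = 6.29e-07), or 837-fold on the FPKM + 1 scale. Csf2, which encodes GM-CSF, had 1018 and 3091 FPKM in stimulated DKO Treg, against 9.92 and 3.3 FPKM in stimulated WT Tconv (log2 difference 8.02 ± 0.62, adjusted p = 9.48e-07). Il2 had 1237 and 3342 FPKM in stimulated DKO Treg, against 57.6 and 29.9 FPKM in stimulated WT Tconv (log2 difference 5.58 ± 0.73, adjusted p = 6.43e-05). For all 3, DKO replicate 2 was above DKO replicate 1, and both were far above the Tconv libraries. Il10, the inhibitory cytokine gene, had 547 and 866 FPKM in stimulated DKO Treg, against 10.2 and 4.87 FPKM in stimulated WT Tconv (log2 difference 6.41 ± 0.80, adjusted p = 4.56e-05); stimulated WT Treg had 55.1 and 54.8 FPKM. Il6 had 114 and 30.4 FPKM in stimulated DKO Treg, against 0.361 and 0.0626 FPKM in stimulated WT Tconv (log2 difference 5.64 ± 0.65, adjusted p = 2.35e-05).

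Among 16 IL-2 family and other T cell cytokine genes, 9 were higher and 1 lower, with a median of 2.69. The lower one was Ltb, a membrane ligand of the TNF family, with 76.3 and 80.5 FPKM in stimulated DKO Treg, against 247 and 400.4 FPKM in stimulated WT Tconv (log2 difference -1.99 ± 0.41, adjusted p = 0.00218). Ligands of that family differed in direction. Tnfsf14, which encodes LIGHT, had 119 and 111 FPKM in stimulated DKO Treg, against 18.3 and 19.4 FPKM in stimulated WT Tconv (log2 difference 2.55 ± 0.70, adjusted p = 0.0131), and Tnfsf8, the CD30 ligand gene, had 974 and 595 FPKM in stimulated DKO Treg, against 129 and 88 FPKM in stimulated WT Tconv (log2 difference 2.82 ± 0.94, adjusted p = 0.0339). Cd40lg had 1130.2 and 1056 FPKM in stimulated DKO Treg, against 502 and 391 FPKM in stimulated WT Tconv and was not called (adjusted p = 0.0749). Tnf had 253 and 662 FPKM in stimulated DKO Treg, against 290.1 and 291 FPKM in stimulated WT Tconv; the DKO libraries lay on either side of the Tconv libraries, and the gene was not called (adjusted p = 0.497). On leaving out 1 library, calls were lost for Tnfsf14 without any 1 of the 4 libraries (adjusted p = 0.0587 to 0.0672) and for Tnfsf8 without any 1 of the 4 libraries (adjusted p = 0.0792 to 0.159).

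Type 1 and cytotoxic genes were in part higher. Of 17, 8 were higher and 1 lower, beside 15% higher and 16.9% lower over all genes, with a median of 1.25. Ifng (chr10:117878103-117882948), which encodes interferon-gamma, had 5804 and 15417 FPKM in stimulated DKO Treg, against 88.4 and 41.3 FPKM in stimulated WT Tconv (log2 difference 7.26 ± 0.72, adjusted p = 6.95e-06), and was the gene with the highest FPKM in stimulated DKO Treg replicate 2. Gzmb and Gzma encode granzymes of killer cells. Gzmb had 236 and 595 FPKM in stimulated DKO Treg, against 3.83 and 3.05 FPKM in stimulated WT Tconv (log2 difference 6.41 ± 0.51, adjusted p = 1.22e-06), and Gzma had 34.6 and 62 FPKM in stimulated DKO Treg, against 1.52 and 0.515 FPKM in stimulated WT Tconv (log2 difference 4.60 ± 0.70, adjusted p = 0.000214). Gzmc had 15.6 and 33.8 FPKM in stimulated DKO Treg, against 0.175 and 0.577 FPKM in stimulated WT Tconv (log2 difference 4.14 ± 0.47, adjusted p = 2.04e-05). The receptor chains Il18rap and Il18r1 were among the 8, with log2 differences of 3.26 and 2.20. Tbx21, the transcription factor that directs Ifng, had 105 and 119.8 FPKM in stimulated DKO Treg, against 90.9 and 83.1 FPKM in stimulated WT Tconv and was not called (adjusted p = 0.462); stimulated WT Treg had 8.93 and 9.93 FPKM. Its relative Eomes was the lower gene, with 0.451 and 0.437 FPKM in stimulated DKO Treg, against 3.68 and 2.76 FPKM in stimulated WT Tconv (log2 difference -1.54 ± 0.24, adjusted p = 0.000274).

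Of 10 type 17 and IL-22 genes, 6 were higher and 0 lower. Il17f had 192 and 92.4 FPKM in stimulated DKO Treg, against 2.82 and 2 FPKM in stimulated WT Tconv (log2 difference 5.31 ± 0.43, adjusted p = 1.3e-06), and Il17a had 187 and 78 FPKM in stimulated DKO Treg, against 7.11 and 2.65 FPKM in stimulated WT Tconv (log2 difference 4.48 ± 0.74, adjusted p = 0.000431). Il21, a helper cytokine gene, had 168 and 230.1 FPKM in stimulated DKO Treg, against 11.1 and 6.88 FPKM in stimulated WT Tconv (log2 difference 4.34 ± 0.44, adjusted p = 8.43e-06). The aryl hydrocarbon receptor gene Ahr had 56.3 and 29.9 FPKM in stimulated DKO Treg, against 3.26 and 2.14 FPKM in stimulated WT Tconv (log2 difference 3.52 ± 0.40, adjusted p = 2.19e-05).

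Chemokine genes followed, with 5 of 11 tested higher and 0 lower, beside 15% higher and 16.9% lower over all genes. Ccl1, a ligand of CCR8, had 4773 and 4535 FPKM in stimulated DKO Treg, against 23.8 and 13.2 FPKM in stimulated WT Tconv (log2 difference 7.95 ± 0.82, adjusted p = 9.37e-06). Ccl3 and Ccl4 are neighbouring genes for inflammatory chemokines. Ccl3 had 664 and 3396 FPKM in stimulated DKO Treg, against 31.1 and 11.5 FPKM in stimulated WT Tconv (log2 difference 6.23 ± 0.93, adjusted p = 0.000191), and Ccl4 had 871 and 5120.3 FPKM in stimulated DKO Treg, against 84.3 and 41.4 FPKM in stimulated WT Tconv (log2 difference 5.13 ± 1.01, adjusted p = 0.00152). In both, DKO replicate 2 stood several-fold above DKO replicate 1. Cxcl10, a target of interferon-gamma, had 28.1 and 26.3 FPKM in stimulated DKO Treg, against 94 and 87.5 FPKM in stimulated WT Tconv and was not called (adjusted p = 0.106). Cxcl3, a neutrophil attractant, had 184 and 56.4 FPKM in stimulated DKO Treg, against 0.315 and 0.182 FPKM in stimulated WT Tconv (log2 difference 6.37 ± 0.57, adjusted p = 3.32e-06).

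Summed over 16 cytokine genes (Il2, Il3, Il4, Il5, Il9, Il10, Il13, Il17a, Il17f, Il21, Il22, Il24, Ifng, Csf2, Tnf and Lta), stimulated DKO Treg held 34328 and 50829.5 FPKM, against 670.1 and 498 FPKM in stimulated WT Tconv. This was 6.39% and 9.62% of the FPKM over all tested genes in DKO Treg, against 0.147% and 0.118% in Tconv. FPKM is a share of each library; with size factors the median difference over all genes was 0.004, against -0.053 as deposited.

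**Figure D3:**
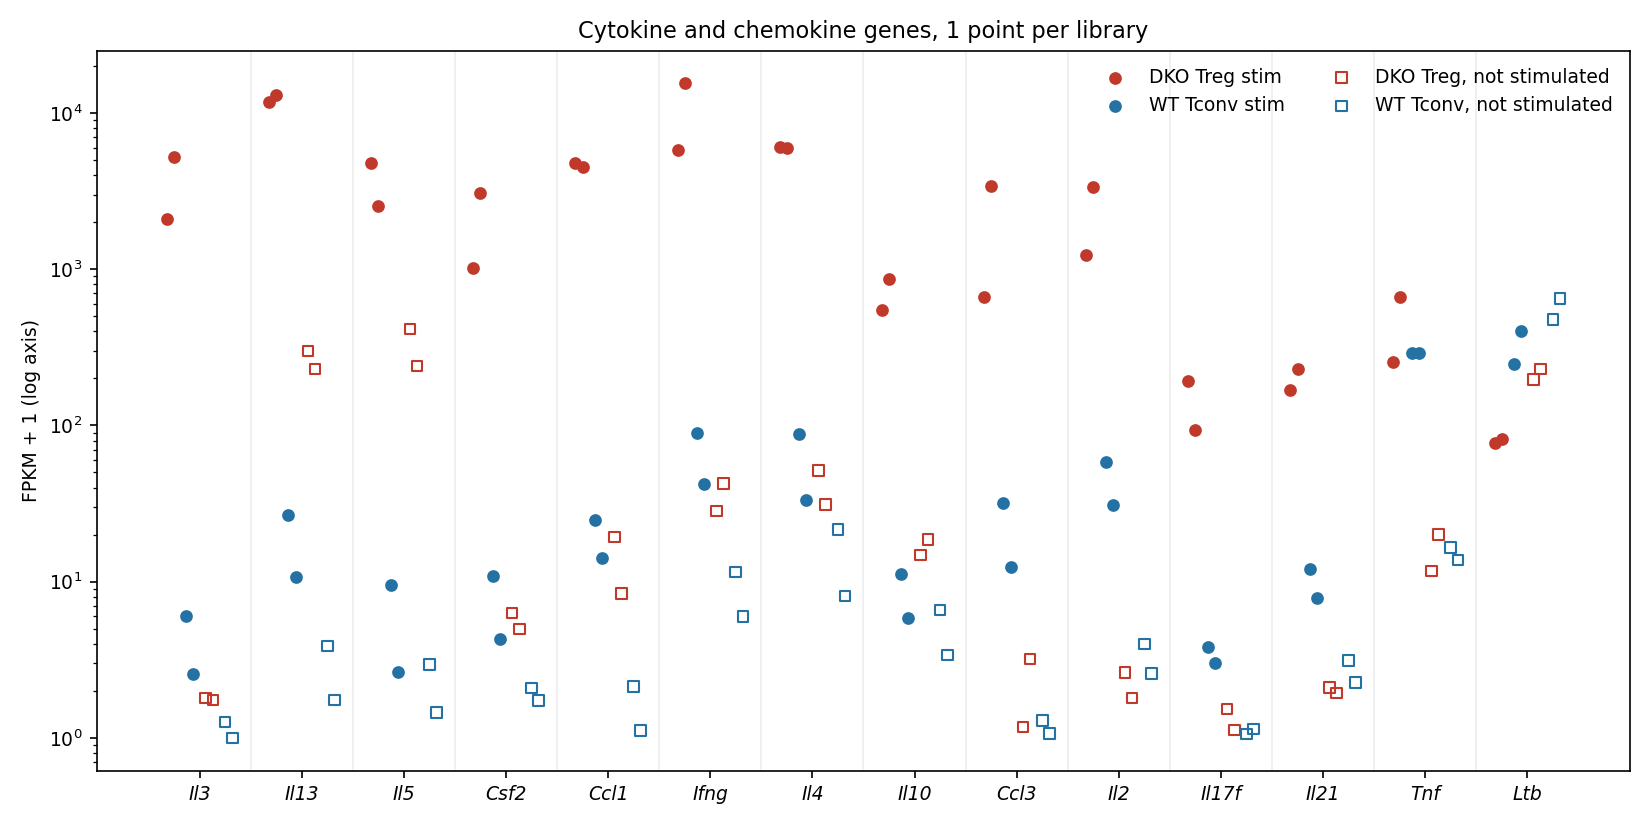
FPKM + 1 (log axis) of 14 cytokine and chemokine genes, 1 point per library; filled circles are stimulated and open squares unstimulated cells, red DKO Treg and blue WT Tconv. The stimulated DKO libraries stand above all others from Il3 to Il21, and Ltb is lowest in them.

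Receptors that restrain or direct T cells were mostly higher. Of 17 costimulatory and inhibitory receptor genes tested, 10 were higher and 1 lower, with a median of 2.27. Havcr2, which encodes TIM-3, had 107 and 201 FPKM in stimulated DKO Treg, against 1.79 and 1.07 FPKM in stimulated WT Tconv (log2 difference 5.94 ± 0.42, adjusted p = 6.29e-07). Lag3 had 60 and 112 FPKM in stimulated DKO Treg, against 3.53 and 4.49 FPKM in stimulated WT Tconv (log2 difference 4.06 ± 0.57, adjusted p = 0.000108), and Cd200r1 had 42.7 and 31.1 FPKM in stimulated DKO Treg, against 3.73 and 2.75 FPKM in stimulated WT Tconv (log2 difference 3.15 ± 0.30, adjusted p = 5.41e-06). Pdcd1, which encodes PD-1, had 469 and 519 FPKM in stimulated DKO Treg, against 85.4 and 93.5 FPKM in stimulated WT Tconv (log2 difference 2.45 ± 0.56, adjusted p = 0.00435). Its ligand gene Cd274 (PD-L1) was the lower one, with 60.2 and 61 FPKM in stimulated DKO Treg, against 294 and 242 FPKM in stimulated WT Tconv (log2 difference -2.12 ± 0.39, adjusted p = 0.000962), whereas the second ligand gene Pdcd1lg2 had 34.9 and 27.9 FPKM in stimulated DKO Treg, against 13.8 and 11.9 FPKM in stimulated WT Tconv (log2 difference 1.22 ± 0.32, adjusted p = 0.00924). Calls that did not hold with 1 library left out were those of Pdcd1lg2 without stimulated DKO Treg replicate 1 or WT Tconv replicate 2 (adjusted p = 0.0663 to 0.071).

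Of 13 TNF receptor genes tested, 3 were higher and 5 lower, beside 15% higher and 16.9% lower over all genes. Tnfrsf4, which encodes OX40, had 986 and 1252 FPKM in stimulated DKO Treg, against 122 and 121 FPKM in stimulated WT Tconv (log2 difference 3.19 ± 0.65, adjusted p = 0.00204). Tnfrsf8 (CD30) had 5.36 and 7.04 FPKM in stimulated DKO Treg, against 0.0464 and 0.109 FPKM in stimulated WT Tconv (log2 difference 2.73 ± 0.35, adjusted p = 5.27e-05). Cd27 had 20.8 and 38.4 FPKM in stimulated DKO Treg, against 259.7 and 329.8 FPKM in stimulated WT Tconv (log2 difference -3.33 ± 0.36, adjusted p = 1.39e-05), and Tnfrsf1a, the main TNF receptor gene, had 6.19 and 6.47 FPKM in stimulated DKO Treg, against 31.1 and 28.1 FPKM in stimulated WT Tconv (log2 difference -2.06 ± 0.31, adjusted p = 0.000221). The death receptor gene Fas had 8.07 and 11.1 FPKM in stimulated DKO Treg, against 36.1 and 31.3 FPKM in stimulated WT Tconv (log2 difference -1.72 ± 0.43, adjusted p = 0.00742). Higher and lower members thus stood in the same family, and stimulated WT Treg held Cd27 at 162 and 150.3 FPKM and Fas at 87 and 107 FPKM. The call was lost for Fas without stimulated DKO Treg replicate 1 or WT Tconv replicate 1 (adjusted p = 0.0535 to 0.0601).

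Homing receptors were higher and lower in part. Of 23 chemokine receptor and homing genes, 8 were higher and 5 lower, beside 15% higher and 16.9% lower over all genes. The lower share is near the background. Among the lower, S1pr1, a receptor for exit from lymph nodes, had 28.1 and 13.7 FPKM in stimulated DKO Treg, against 128 and 119 FPKM in stimulated WT Tconv (log2 difference -2.59 ± 0.40, adjusted p = 0.000251), and its regulator Klf2 had 16.1 and 12.3 FPKM in stimulated DKO Treg, against 133 and 158 FPKM in stimulated WT Tconv (log2 difference -3.27 ± 0.32, adjusted p = 6.13e-06). Itga4, an integrin chain, had a log2 difference of -2.67 and was also among the lower. Among the higher were receptors of effector cells: Cxcr6 had 472 and 233 FPKM in stimulated DKO Treg, against 66.8 and 30.1 FPKM in stimulated WT Tconv (log2 difference 2.86 ± 0.69, adjusted p = 0.0058), and Ccr2 had 45.6 and 13.2 FPKM in stimulated DKO Treg, against 4.53 and 2.9 FPKM in stimulated WT Tconv (log2 difference 2.47 ± 0.53, adjusted p = 0.00292). On leaving out 1 library, calls were lost for Itga4 without stimulated DKO Treg replicate 2 (adjusted p = 0.0694) and for Cxcr6 without stimulated DKO Treg replicate 1 or WT Tconv replicate 2 (adjusted p = 0.0609 to 0.0701).

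Genes of histamine and lipid mediators, more familiar from mast cells and basophils, were higher at 7 of 12 tested and lower at 0. Hdc, the enzyme that makes histamine, had 112 and 68.6 FPKM in stimulated DKO Treg, against 1.58 and 1.65 FPKM in stimulated WT Tconv (log2 difference 5.08 ± 0.64, adjusted p = 4.91e-05). Hrh4, a histamine receptor gene, had 28.7 and 32.3 FPKM in stimulated DKO Treg, against 0.668 and 0.251 FPKM in stimulated WT Tconv (log2 difference 4.44 ± 0.37, adjusted p = 1.87e-06). Cysltr1 and Ltb4r1 encode leukotriene receptors. Cysltr1 had 106 and 43.3 FPKM in stimulated DKO Treg, against 2.29 and 0.581 FPKM in stimulated WT Tconv (log2 difference 4.92 ± 0.43, adjusted p = 2.8e-06), and Ltb4r1 had 33.8 and 12.6 FPKM in stimulated DKO Treg, against 0.643 and 0.125 FPKM in stimulated WT Tconv (log2 difference 4.0 ± 0.53, adjusted p = 6.99e-05). All 4 were under 3 FPKM in every stimulated WT Tconv and WT Treg library.

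Of 19 naive and quiescence genes, 15 were lower and 0 higher (median -2.19). Klf3 had 4.84 and 3.07 FPKM in stimulated DKO Treg, against 60 and 63.1 FPKM in stimulated WT Tconv (log2 difference -3.68 ± 0.35, adjusted p = 5.69e-06), and Bach2, a repressor of effector genes, had 7.5 and 4.65 FPKM in stimulated DKO Treg, against 53.8 and 52.8 FPKM in stimulated WT Tconv (log2 difference -2.97 ± 0.36, adjusted p = 3.78e-05). Foxp1 had 22.4 and 20.1 FPKM in stimulated DKO Treg, against 55.7 and 51.9 FPKM in stimulated WT Tconv (log2 difference -1.30 ± 0.19, adjusted p = 0.000149). Tsc22d3, which encodes the glucocorticoid-induced protein GILZ, had 15.5 and 10 FPKM in stimulated DKO Treg, against 65.5 and 67.7 FPKM in stimulated WT Tconv (log2 difference -2.32 ± 0.36, adjusted p = 0.000261). No DKO library reached a Tconv library in these genes. The members not called were Slfn2, Btg1, Btg2 and Ccr7, the last with 66.6 and 50.4 FPKM in stimulated DKO Treg, against 237 and 304 FPKM in stimulated WT Tconv (adjusted p = 0.0654).

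Most genes of the early response to the T cell receptor were not called. Of 31 such genes, 3 were higher and 5 lower, shares near the background, with a median of -0.23. Egr2 lay far higher with stimulation than without it in both groups. Stimulated cells had 289 and 214 FPKM in DKO Treg, against 247 and 245 FPKM in WT Tconv, and unstimulated cells 5.86 and 3.32 FPKM in DKO Treg, against 25.4 and 23.6 FPKM in WT Tconv. Nr4a1, a reporter of receptor signalling, had 930.2 and 1044 FPKM in stimulated DKO Treg, against 2191 and 2263 FPKM in stimulated WT Tconv and was not called (adjusted p = 0.467). Both DKO libraries lay below both Tconv libraries, so the lack of a call does not make the levels alike. The activation marker gene Cd69 had 100.4 and 102 FPKM in stimulated DKO Treg, against 1099 and 734 FPKM in stimulated WT Tconv (log2 difference -3.13 ± 0.64, adjusted p = 0.00209). Egr1 had 279.7 and 194 FPKM in stimulated DKO Treg, against 714 and 574 FPKM in stimulated WT Tconv (log2 difference -1.45 ± 0.49, adjusted p = 0.0352), and Egr3 had 158 and 130.5 FPKM in stimulated DKO Treg, against 383 and 354 FPKM in stimulated WT Tconv (log2 difference -1.35 ± 0.47, adjusted p = 0.0409). The higher ones were Batf, an AP-1 family factor, with 379 and 445 FPKM in stimulated DKO Treg, against 30.1 and 29.8 FPKM in stimulated WT Tconv (log2 difference 3.73 ± 0.21, adjusted p = 6.76e-08), Ier3 with 104 and 94.5 FPKM in stimulated DKO Treg, against 2.52 and 2.37 FPKM in stimulated WT Tconv (log2 difference 4.86 ± 0.47, adjusted p = 5.58e-06), and Dusp4 (log2 difference 3.26). Calls that did not hold with 1 library left out were those of Egr1 without any 1 of the 4 libraries (adjusted p = 0.0594 to 0.201), Egr3 without any 1 of the 4 libraries (adjusted p = 0.0915 to 0.181) and Dusp4 without any 1 of the 4 libraries (adjusted p = 0.126 to 0.166).

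Part of the interferon response genes were lower. Of 22, 8 were lower and 1 higher (median -1.14). Stat2, a subunit of the interferon-activated complex, had 13.5 and 10.1 FPKM in stimulated DKO Treg, against 46.6 and 40.3 FPKM in stimulated WT Tconv (log2 difference -1.81 ± 0.17, adjusted p = 5.69e-06), and its partner Irf9 had 44.8 and 28.8 FPKM in stimulated DKO Treg, against 84.7 and 78.3 FPKM in stimulated WT Tconv (log2 difference -1.16 ± 0.25, adjusted p = 0.00285). Irf7, the amplifier of type I interferon, had 17.4 and 9.5 FPKM in stimulated DKO Treg, against 68.7 and 53.5 FPKM in stimulated WT Tconv (log2 difference -2.15 ± 0.37, adjusted p = 0.000571). The GTPase gene Irgm1 had 208 and 94.5 FPKM in stimulated DKO Treg, against 711 and 544 FPKM in stimulated WT Tconv (log2 difference -2.14 ± 0.45, adjusted p = 0.00241). The higher one was Ifih1, the RNA sensor MDA5, with 47.3 and 52.1 FPKM in stimulated DKO Treg, against 20.5 and 17.9 FPKM in stimulated WT Tconv (log2 difference 1.33 ± 0.40, adjusted p = 0.02). The call was lost for Ifih1 without any 1 of the 4 libraries (adjusted p = 0.0635 to 0.105).

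The guanylate-binding proteins, GTPases that interferon-gamma induces, gave 3 of the 15 largest decreases among the genes that the naming rule admits. Gbp11 had 1.72 and 1.35 FPKM in stimulated DKO Treg, against 39.5 and 24.5 FPKM in stimulated WT Tconv (log2 difference -3.67 ± 0.36, adjusted p = 7.22e-06). Gbp8 had 6.4 and 5.63 FPKM in stimulated DKO Treg, against 84.4 and 71.4 FPKM in stimulated WT Tconv (log2 difference -3.49 ± 0.58, adjusted p = 0.000457), and Gbp9 had 8.97 and 5.63 FPKM in stimulated DKO Treg, against 92.8 and 80.1 FPKM in stimulated WT Tconv (log2 difference -3.42 ± 0.52, adjusted p = 0.000227). Not every member of the family was lower: Gbp1 and Gbp3 were not called, with log2 differences of 0.45 and 0.11. The Gbp genes are close copies in a cluster, and how their reads were divided is not recorded.

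The interferon-inducible transmembrane genes were higher. Of 6 Ifitm genes, 5 were tested and 5 were higher, with a median of 5.94. Ifitm2 (chr7:148140738-148141860) had 569 and 638 FPKM in stimulated DKO Treg, against 5.47 and 3.55 FPKM in stimulated WT Tconv (log2 difference 6.80 ± 0.21, adjusted p = 2.56e-10), the smallest adjusted p of the comparison. Ifitm3 had 274 and 455 FPKM in stimulated DKO Treg, against 2.02 and 3.23 FPKM in stimulated WT Tconv (log2 difference 6.63 ± 0.72, adjusted p = 1.57e-05), and Ifitm1 had 67.6 and 239.8 FPKM in stimulated DKO Treg, against 1.38 and 0.84 FPKM in stimulated WT Tconv (log2 difference 5.94 ± 0.83, adjusted p = 0.000105). Stimulated WT Treg had 8.6 and 9.41 FPKM for Ifitm2 and 0.671 and 3.55 FPKM for Ifitm3.

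Genes of division and of sugar use were mostly higher. Of 24 cell cycle genes, 23 were higher and 0 lower, with a median of 3.46. Rrm2, a ribonucleotide reductase subunit, had 143 and 186 FPKM in stimulated DKO Treg, against 3.76 and 5.3 FPKM in stimulated WT Tconv (log2 difference 4.91 ± 0.50, adjusted p = 8.24e-06). Top2a, the topoisomerase of dividing cells, had 135 and 147 FPKM in stimulated DKO Treg, against 5.11 and 7.58 FPKM in stimulated WT Tconv (log2 difference 4.29 ± 0.49, adjusted p = 2.04e-05), and Mki67 had 58.8 and 70.5 FPKM in stimulated DKO Treg, against 2.5 and 4.06 FPKM in stimulated WT Tconv (log2 difference 3.96 ± 0.64, adjusted p = 0.000357). Stimulated WT Treg had 6.81 and 16.7 FPKM for Mki67, between the groups. The member not called was Pcna, with 326 and 284 FPKM in stimulated DKO Treg, against 223 and 166 FPKM in stimulated WT Tconv (adjusted p = 0.189). Of 14 G1 cyclins, kinases and inhibitors tested, 8 were higher and 2 lower. Among the higher, the inhibitor gene Cdkn2a had 15.6 and 26.8 FPKM in stimulated DKO Treg, against 0.0989 and 0.182 FPKM in stimulated WT Tconv (log2 difference 4.24 ± 0.29, adjusted p = 4.86e-07).

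Of 16 glycolysis genes, 11 were higher and 0 lower, with a median of 1.26. Hk2, the inducible hexokinase, had 75.8 and 60.7 FPKM in stimulated DKO Treg, against 2.77 and 3.32 FPKM in stimulated WT Tconv (log2 difference 4.09 ± 0.56, adjusted p = 9.7e-05), and Tpi1 had 137 and 269 FPKM in stimulated DKO Treg, against 8.74 and 14.6 FPKM in stimulated WT Tconv (log2 difference 3.97 ± 0.40, adjusted p = 7.31e-06). Pkm2, the pyruvate kinase gene, had 593 and 642 FPKM in stimulated DKO Treg, against 194 and 219.7 FPKM in stimulated WT Tconv (log2 difference 1.57 ± 0.18, adjusted p = 2.04e-05). Of 15 cholesterol synthesis genes tested, 0 were higher and 2 lower, beside 15% higher and 16.9% lower over all genes. The lower share is near the background. Of 12 heat shock genes 0 were called, and of 14 amino acid transporters and MYC targets 0 were called, beside 31.9% over all genes.

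Galectin, annexin and S100 genes, typical of effector and memory cells, were higher at 12 of 15 and lower at 0, with a median of 2.31. Lgals1 had 1225 and 1859 FPKM in stimulated DKO Treg, against 39.2 and 37.1 FPKM in stimulated WT Tconv (log2 difference 5.27 ± 0.52, adjusted p = 7.16e-06). Anxa2 had 389 and 457 FPKM in stimulated DKO Treg, against 14.6 and 15 FPKM in stimulated WT Tconv (log2 difference 4.75 ± 0.35, adjusted p = 7.18e-07), and S100a6 had 390.3 and 446 FPKM in stimulated DKO Treg, against 13.3 and 9.37 FPKM in stimulated WT Tconv (log2 difference 5.10 ± 0.58, adjusted p = 2.06e-05). The neutrophil genes S100a8 and S100a9 were not called; S100a8 had 2.95 and 36.2 FPKM in stimulated DKO Treg, against 2.78 and 4.08 FPKM in stimulated WT Tconv, with DKO replicate 2 alone high.

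In the BCL2 family, 4 of 10 genes were higher and 3 lower, beside 15% higher and 16.9% lower over all genes. Beside Bcl2l1, the death genes Pmaip1 and Bak1 were higher, with log2 differences of 2.17 and 1.27. Bcl2 had 13.2 and 14.1 FPKM in stimulated DKO Treg, against 32.9 and 28.2 FPKM in stimulated WT Tconv (log2 difference -1.10 ± 0.21, adjusted p = 0.00115), and stimulated WT Treg had 79.6 and 78.8 FPKM. Mcl1 had 201 and 166 FPKM in stimulated DKO Treg, against 349 and 289.7 FPKM in stimulated WT Tconv (log2 difference -0.80 ± 0.22, adjusted p = 0.0131). On leaving out 1 library, calls were lost for Pmaip1 without any 1 of the 4 libraries (adjusted p = 0.0808 to 0.0998) and for Mcl1 without stimulated DKO Treg replicate 2 or WT Tconv replicate 1 (adjusted p = 0.11 to 0.112).

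**Figure D4:**
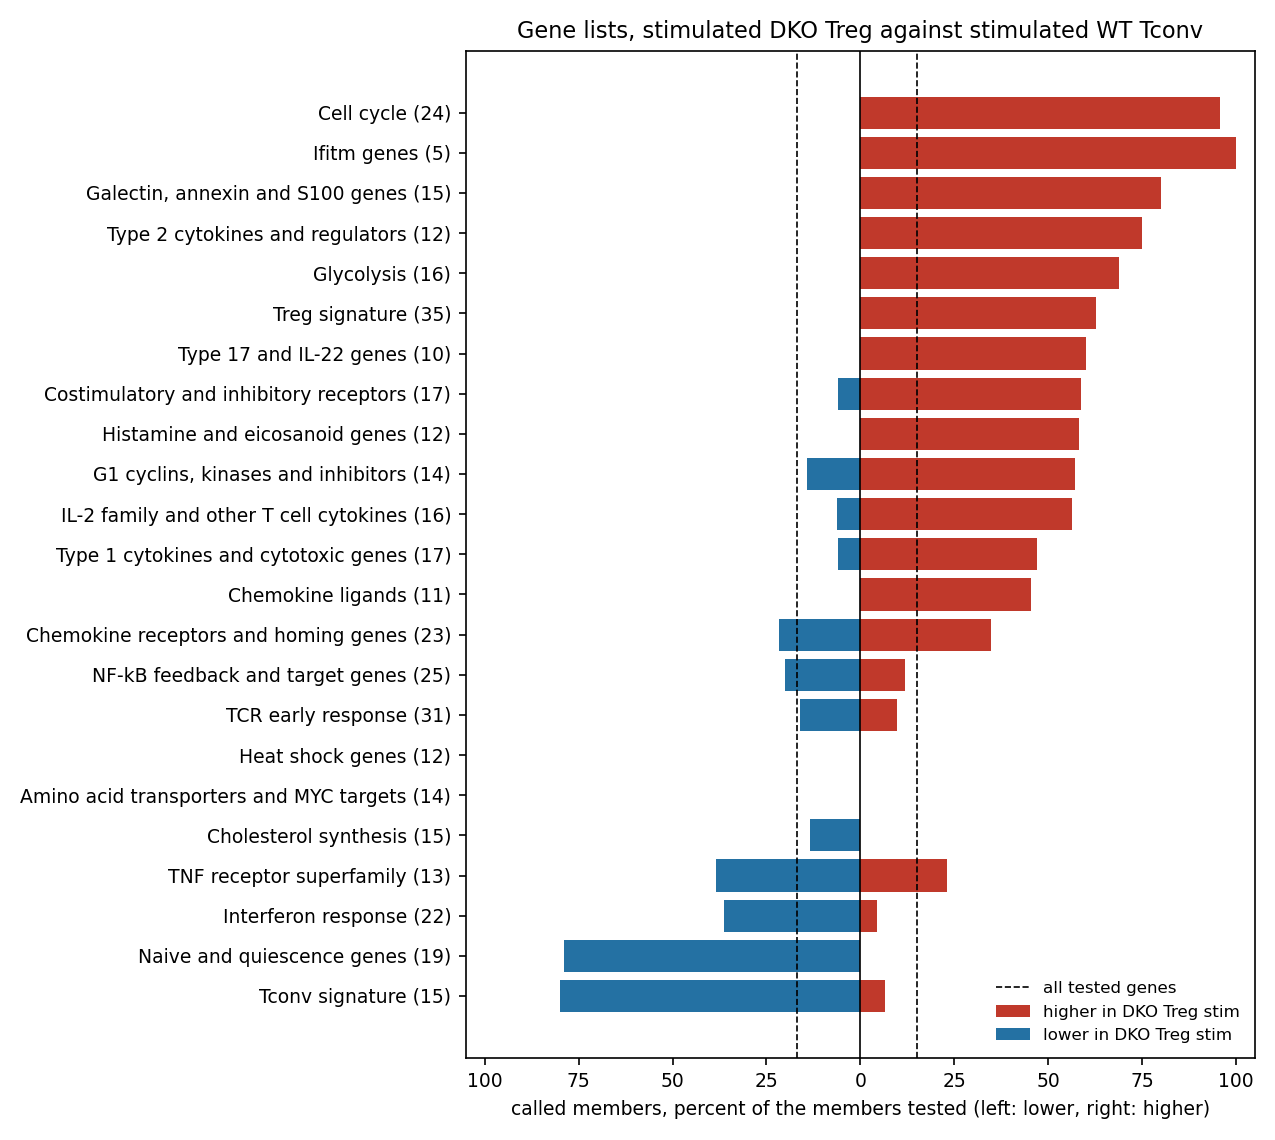
Percent of the tested members of each list (number tested in brackets) that were higher, to the right, or lower, to the left, in stimulated DKO Treg than in stimulated WT Tconv; dashed lines mark 15% and 16.9%, the shares over all genes. Cell cycle genes reach the right side and naive and Tconv genes the left, while NF-kB targets and early response genes stay near the dashed lines.

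Other genes with the largest decreases were St8sia6, a sialyltransferase gene, with 0.463 and 0.141 FPKM in stimulated DKO Treg, against 58.6 and 50.4 FPKM in stimulated WT Tconv (log2 difference -5.42 ± 0.47, adjusted p = 2.55e-06), and Pou6f1, a POU family transcription factor gene, with 2.19 and 0.925 FPKM in stimulated DKO Treg, against 51.1 and 47 FPKM in stimulated WT Tconv (log2 difference -4.34 ± 0.59, adjusted p = 8.57e-05). Pik3ip1, an inhibitor of PI3-kinase, had 1.08 and 0.544 FPKM in stimulated DKO Treg, against 22.1 and 32.8 FPKM in stimulated WT Tconv (log2 difference -3.96 ± 0.66, adjusted p = 0.000451). Vipr1, the receptor of vasoactive intestinal peptide, had a log2 difference of -3.81, Bambi-ps1 -3.94, Art2b -4.14, Tspan9 -3.43 and Pde2a -3.39. Among the largest increases, the metallothionein gene Mt2 had 151 and 51.6 FPKM in stimulated DKO Treg, against 0 and 0.653 FPKM in stimulated WT Tconv, the first Tconv library being listed at 0. Calls that did not hold with 1 library left out were those of Art2b without any 1 of the 4 libraries (adjusted p = 0.0639 to 0.157).

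Markers of T cells and of other cells were read in the same libraries. Of 13 T cell identity genes tested, 1 was higher, 4 were lower and 8 were not called (median -0.30), beside 15% higher and 16.9% lower over all genes. Among those not called, Cd3e, of the T cell receptor complex, had 230 and 210.1 FPKM in stimulated DKO Treg, against 239 and 273 FPKM in stimulated WT Tconv (adjusted p = 0.72). The T cell marker gene Cd247 was lower in stimulated DKO Treg (log2 difference -0.53, adjusted p = 0.0445). Of 10 B cell markers tested, 0 were called, and the summed level was 4.29 and 7.83 FPKM in stimulated DKO Treg, against 3.82 and 2.88 FPKM in stimulated WT Tconv. Of 15 myeloid markers tested, 1 was higher, the widely expressed Cst3, and the sum was 142 and 168 FPKM in DKO Treg, against 67.9 and 78.4 FPKM in Tconv. Of the 17 myeloid markers found, 8 were under 1 FPKM in both stimulated DKO Treg libraries and 9 in both stimulated WT Tconv libraries. Csf1r was among the low ones, with 0.0798 and 0.493 FPKM in stimulated DKO Treg, against 0.0345 and 0.102 FPKM in stimulated WT Tconv. Of 7 NK and CD8 T cell markers tested, 2 were higher and 1 lower, and the sum was 46.1 and 73 FPKM in DKO Treg, against 20.9 and 17.1 FPKM in Tconv. The higher ones were Gzma, given above, and the NK receptor gene Ncr1, and the lower one was Eomes. Ncr1 had 1.4 and 0.736 FPKM in stimulated DKO Treg, against 0.202 and 0.147 FPKM in stimulated WT Tconv (adjusted p = 0.0331, and 0.105 to 0.23 without DKO replicate 1 or either Tconv replicate). Cd8a, which defines CD8 T cells, had 0.105 and 0.206 FPKM in stimulated DKO Treg, against 0.158 and 0.0849 FPKM in stimulated WT Tconv. Of 6 gamma delta T cell and ILC2 markers tested, 2 were higher and 1 lower, and the sum was 296 and 80.9 FPKM in DKO Treg, against 11.6 and 6.29 FPKM in Tconv, of which Il1rl1 made up most in DKO Treg. Of 7 MHC class II genes, 1 was higher, Cd74, and the sum was 419.7 and 284 FPKM in DKO Treg, against 100.2 and 64.7 FPKM in Tconv. The part of other cells in the differences was not tested further.

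Without stimulation, DKO Treg and WT Tconv already differed widely. Of 11535 genes, 4254 (36.9%) were called, 2391 higher (20.7%) and 1863 lower (16.2%) in DKO Treg, and 2715 genes were called without WT Tconv replicate 2. In replicate 2 the short RNA gene Mir682 was listed at 433164 FPKM in unstimulated DKO Treg, against 297653 FPKM in unstimulated WT Tconv, and its part was not tested. These libraries are separate from the stimulated ones, but both tests took the spread of each gene from the same fit, so their calls are not independent. Deviations from the group mean also correlated between same-numbered stimulated and unstimulated libraries, at 0.643 in DKO Treg and 0.633 in WT Tconv. Of the 3675 genes called with stimulation, 2985 (81.2%) were called without it, which is 70.2% of the unstimulated calls, and 2968 of them had the same sign. The differences correlated across genes (Pearson's r = 0.873, a description over genes that are not independent). Ifitm2 had 764 and 819 FPKM in unstimulated DKO Treg, against 3.23 and 2.25 FPKM in unstimulated WT Tconv, Lgals1 had 1451 and 1984 FPKM in unstimulated DKO Treg, against 32.9 and 36.5 FPKM in unstimulated WT Tconv, and Hdc had 103 and 53.6 FPKM in unstimulated DKO Treg, against 0.724 and 0.701 FPKM in unstimulated WT Tconv. Cell cycle genes, at 24 of 24 higher, and naive genes, at 17 of 19 lower, stood apart before stimulation too.

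The test of whether the difference itself changed with stimulation called 69 genes (0.598%), 36 with a larger and 33 with a smaller value under stimulation. The count was 39 without stimulated WT Tconv replicate 1, 45 without unstimulated DKO Treg replicate 1, 41 without unstimulated WT Tconv replicate 2 and 33 with a pseudocount of 0.1, of which 9 were larger and 24 smaller. With no filter on low values it was 153, of which 91 were larger and 62 smaller. Without the 3 doubtful libraries it was 169, of which 74 were larger and 95 smaller. The median of this difference over all genes was -0.104, and 0.016 with size factors, which gave 41 larger and 23 smaller values. The larger ones were led by cytokine genes that were low in both unstimulated groups. Il3 had 0.806 and 0.753 FPKM in unstimulated DKO Treg, against 0.263 and 0 FPKM in unstimulated WT Tconv, a difference of differences of 9.05. Il2 had 1.62 and 0.799 FPKM in unstimulated DKO Treg, against 2.99 and 1.58 FPKM in unstimulated WT Tconv, a difference of differences of 6.14. Csf2 followed with 6.46, Ifng with 5.20, Il17f with 5.05 and Il21 with 4.73. Olr1, the receptor of oxidised LDL, had 43.4 and 41.3 FPKM in stimulated DKO Treg, against 0.0942 and 0.0559 FPKM in stimulated WT Tconv, and 0.965 and 0.514 FPKM in unstimulated DKO Treg, against 0.0522 and 0.0117 FPKM in unstimulated WT Tconv (difference of differences 4.59). Crabp2, a retinoic acid carrier gene, gave 4.56. Il31, Tnip3 and Batf were also called, at 4.02, 3.49 and 1.65. Il13 and Il5, high in DKO Treg before stimulation with 299 and 228 FPKM and 412 and 239 FPKM, were not called.

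The smaller ones were led by Socs1 and Gbp genes. Socs1, the feedback inhibitor of cytokine signalling, had 331 and 297 FPKM in stimulated DKO Treg, against 406 and 366 FPKM in stimulated WT Tconv, while unstimulated cells had 304 and 231 FPKM in DKO Treg, against 25 and 20.5 FPKM in WT Tconv (difference of differences -3.79). Gbp2 had 358 and 183 FPKM in stimulated DKO Treg, against 638 and 491 FPKM in stimulated WT Tconv, and unstimulated cells had 454 and 478 FPKM in DKO Treg, against 104 and 100.1 FPKM in WT Tconv (difference of differences -3.31). In both genes the DKO libraries lay above the Tconv libraries without stimulation and below them with it. Gbp11, Gbp6, Gbp7 and Gbp5 gave -3.70, -3.32, -3.27 and -2.87, the kinase adaptor gene Tbkbp1 -3.13 and the prion protein gene Prnp -2.89. Irf1 had 165 and 155 FPKM in unstimulated DKO Treg, against 308 and 248 FPKM in unstimulated WT Tconv, a difference of differences of -1.81. Stat2, Igtp, Bcl2 and Ccnd2 were also called, at -1.84, -2.09, -2.17 and -1.86.

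**Figure D5:**
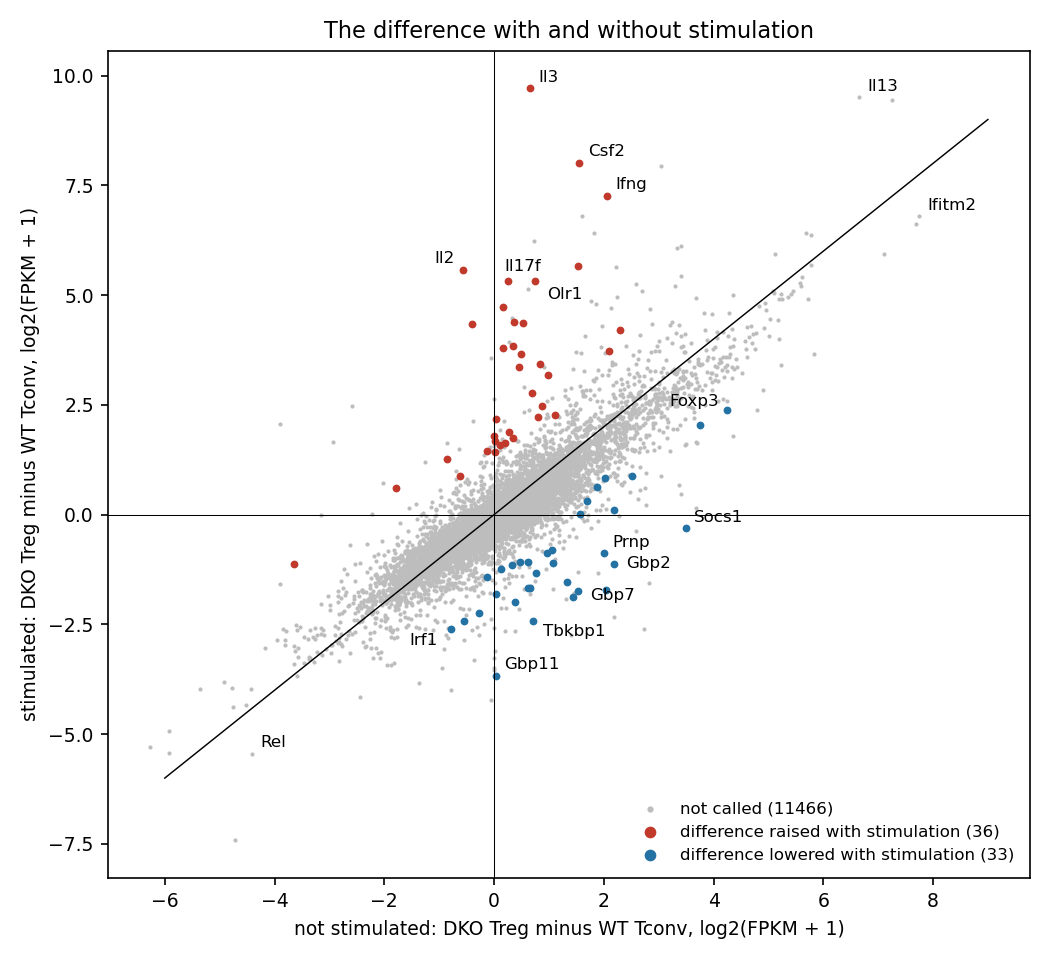
Each point is 1 of 11535 genes; the x axis is the DKO Treg minus WT Tconv difference in log2(FPKM + 1) without stimulation, the y axis the same with stimulation, and the line marks equality. The 69 coloured genes are those whose difference changed: Il3, Csf2, Ifng and Il2 lie high above the line and Socs1 and the Gbp genes below it.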

How the data were processed

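RNA-seq of mouse T cells was analysed from gene tables with FPKM values, which the authors made with TopHat and Cufflinks on mm9, per the submitters' processing notes; the sources used here give no versions, annotation or strand. The deposited FPKM of 21 libraries entered, and those treated with TAT-Cre were left out. Of 23235 symbols, 247 were left out, and a filter of 1 FPKM or more in 2 or more libraries passed 11535. Limma 3.58.1 (R 4.3.3) was fitted with a trend to log2(FPKM + 1), with one mean per group, and p-values were adjusted by Benjamini-Hochberg over all genes. Fragments were estimated from the Cufflinks confidence bounds, so depth is approximate (16 to 52.8 M) and covers counting error only. The fit was tested on simulated data. Members and gene lists were chosen with earlier results of these data known. Genes named were the 15 called genes with the largest difference each way (a mean of at least 5 FPKM in either group, no overlap between groups, predicted, clone and small RNA genes passed over), 8 each way for the change with stimulation, and list members; some list members are not reported here. Alternatives changed the pseudocount, filter, scaling, trend, libraries and replicate block. Close copies (Gbp, Ifitm, Bcl2a1 and globin genes) are uncertain, since the division of shared reads is not recorded.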

Additional observations from a re-analysis of the deposited data

Results flagged for a closer look

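For the genes below, the difference between DKO Treg and WT Tconv with stimulation differed from that without it, by limma's test of the difference of differences (adjusted p under 0.05 over all genes). Values are log2 differences of differences, stimulated minus unstimulated. Among cytokine genes, Il3 had 9.05, Csf2 6.46, Il2 6.14, Ifng 5.20, Il17f 5.05, Il21 4.73, Il31 4.02 and Il24 3.85. Other genes with a larger value under stimulation were Olr1 at 4.59, Crabp2 at 4.56, Tnip3 at 3.49 and Batf at 1.65. Those with a smaller value were Socs1 at -3.79, Gbp11 at -3.70, Gbp6 at -3.32, Gbp2 at -3.31, Gbp7 at -3.27, Tbkbp1 at -3.13, Prnp at -2.89 and Gbp5 at -2.87. They also included Bcl2 at -2.17, Igtp at -2.09, Ccnd2 at -1.86, Stat2 at -1.84 and Irf1 at -1.81.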

How the results depend on the processing

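The count of 3675 genes called between stimulated DKO Treg and stimulated WT Tconv stayed within 1.5 times under another pseudocount, filter, scaling or trend and in fits of the 4 or 6 stimulated libraries alone; leaving out 1 library gave 2290 to 2666. The other counts ranged, on leaving out 1 library, over 2715 to 3074 without stimulation, 39 to 70 for the change with stimulation, 273 to 307 for stimulated WT Treg against WT Tconv and 1904 to 2808 for stimulated DKO Treg against WT Treg. The change with stimulation gave 33 genes at a pseudocount of 0.1 and 153 with no filter. Without 3 libraries of doubtful label or purity, chosen after seeing the data, it gave 169, and WT Treg against WT Tconv gave 1818. Stimulated DKO Treg against stimulated WT Tconv gave 4851 without those 3, 4746 in the 4 libraries alone and 5352 in the 6 stimulated libraries alone. The causes were not tested.

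Replicates share only a number, and with 2 pairs the pairing could not be settled; deviations of same-numbered libraries correlated across genes at 0.454 for stimulated DKO Treg with WT Tconv and at 0.351 to 0.643 over 10 pairs of groups. With the replicate block, the counts were 6906 genes for stimulated DKO Treg against WT Tconv (6073 in the 4 libraries alone), 7399 without stimulation, 790 for the change with stimulation (234 larger and 556 smaller), 4276 for WT Treg against WT Tconv and 7232 for DKO Treg against WT Treg. In the comparison of stimulated DKO Treg with WT Tconv, 14 of 168 named genes passed the threshold with the block and not without it, and 0 lost it.

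The sign turned for some genes that were not called. On leaving out 1 library, the log2 difference ranged over -0.02 to 0.11 for Cd8a, -0.22 to 0.81 for Lta, -0.15 to 3.09 for S100a8, -0.95 to 3.41 for S100a9, -0.20 to 1.19 for Tnf, -0.20 to 0.23 for Egr2, -5.95 to 0.00 for Ddx3y and -1.02 to 5.01 for Xist.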
